A study of Homo sapiens with 22 samples.

Results

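The measurements described are those of 10 genes of the Notch pathway in human melanoma cells, chosen by their symbols from the gene tables of 3 single-cell RNA-seq experiments: the ligand genes JAG1, JAG2 and DLL1, the receptor genes NOTCH1, NOTCH2 and NOTCH3, and the target genes HES1, HEY1, HEYL and NRARP. All 10 symbols were found, among 33538 genes in the table of untreated WM989 cells and among 36601 in each of the other 2 tables. The genes were picked with earlier levels by state, cluster and TGFB1 treatment in view, so these levels are given as a description and without p-values. WM989 and WM983B are established melanoma cell lines that carry a mutated BRAF. In the authors' annotation each cell is either drug-susceptible or primed. Primed denotes cells, rare in WM989, that tend to survive BRAF inhibition and carry markers such as EGFR, NGFR and AXL.

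In the first experiment untreated WM989 cells with lentiviral lineage barcodes were captured in 8 wells, 4 of replicate r1 and 4 of replicate r2, with 9688 drug-susceptible and 2843 primed cells. Before capture, 1 part of these cells was enriched by a sort for EGFR and NGFR, and the cell labels give only the well number and the replicate, so the share of primed cells is set by the sort. In the second, untreated WM983B cells formed 1 library of 718 drug-susceptible and 731 primed cells. In the third, WM989 cells with lineage barcodes were sorted into a well, expanded and split over plates, which was done with 2 samples in parallel. The plates were either left untreated (Control), given recombinant TGFB1, given TGFBRi, an inhibitor of the TGF-β receptors 1 and 2, or given PI3Ki, an inhibitor of PI3 kinase. Each treatment has 2 libraries, which the cell metadata call r1 and r2 and the labels call Mix and Primed. Which is which, and whether the 2 samples began from different cells, is not given, so the p-values for this experiment measure only the spread between these samples after a term for the replicate. ATAC-seq, which maps open chromatin by transposase insertion, was made on WM989 cells of 4 sorts with 3 libraries each, which the labels name Mix, EGFR-High, EGFR-NGFR-High and NGFR-High. The methods describe the fourth sort as negative for both markers, whereas the labels call it Mix, and the label is used here.

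Notch signalling passes between touching cells. A ligand of the Jagged or Delta-like family on one cell binds a Notch receptor on its neighbour, the receptor is cut by ADAM proteases and γ-secretase, and its intracellular part enters the nucleus, where it binds RBPJ and Mastermind proteins and turns on targets such as the HES and HEY repressors. In the melanocyte lineage the pathway is known for keeping melanocyte stem cells and melanoblasts, with HES1 as a main effector. JAG1 is also known as a gene that TGF-β can raise in several epithelial cell types, and its ligand product can bind NOTCH1, NOTCH2 and NOTCH3.

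The sequences shown are 300 bases around the summit of 2 regions near JAG1 and of 1 region before HES1, and the 250 bases before the HES1 start. The regions before the JAG1 and HES1 starts passed a test between sorts of the ATAC-seq. The region after the JAG1 end was not tested, as no Mix library had a peak there. The 250 bases are shown for their RBPJ matches, and the chromatin region over them did not pass the test. All sequences are given 5′ to 3′ on the plus strand of hg38, the last from the RefSeq promoter table of GRCh38.p14, in which 8 of the 10 genes were matched and used. Capitals mark matches, on either strand, to the letters of an AP-1 motif (TGANTCA) in the JAG1 regions and of an RBPJ motif (TGGGAA) in the HES1 promoter. A TEAD motif (GGAATG) was also searched on both strands. None of these matches overlapped another.
JAG1 region before the start, chr20:10679317-10679616: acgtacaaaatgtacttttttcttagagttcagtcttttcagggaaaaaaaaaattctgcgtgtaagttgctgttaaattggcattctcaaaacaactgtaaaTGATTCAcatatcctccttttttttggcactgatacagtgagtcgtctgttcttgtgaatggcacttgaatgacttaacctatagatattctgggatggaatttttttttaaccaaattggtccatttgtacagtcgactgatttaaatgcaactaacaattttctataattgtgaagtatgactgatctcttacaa
JAG1 region after the end, chr20:10622792-10623091: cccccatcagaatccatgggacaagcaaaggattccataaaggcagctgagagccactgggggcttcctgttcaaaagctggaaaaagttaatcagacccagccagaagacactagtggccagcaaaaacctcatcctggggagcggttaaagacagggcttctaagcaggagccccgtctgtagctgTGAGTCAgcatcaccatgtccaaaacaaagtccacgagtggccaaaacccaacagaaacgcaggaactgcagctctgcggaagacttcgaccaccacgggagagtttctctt
HES1 region before the start, chr3:194132501-194132800: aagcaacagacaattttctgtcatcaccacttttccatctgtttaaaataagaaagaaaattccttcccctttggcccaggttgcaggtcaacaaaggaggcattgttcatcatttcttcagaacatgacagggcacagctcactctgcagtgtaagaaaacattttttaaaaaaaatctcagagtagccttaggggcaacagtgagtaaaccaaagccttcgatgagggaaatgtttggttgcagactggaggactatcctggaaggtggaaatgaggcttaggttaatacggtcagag
HES1 promoter, chr3:194135898-194136147: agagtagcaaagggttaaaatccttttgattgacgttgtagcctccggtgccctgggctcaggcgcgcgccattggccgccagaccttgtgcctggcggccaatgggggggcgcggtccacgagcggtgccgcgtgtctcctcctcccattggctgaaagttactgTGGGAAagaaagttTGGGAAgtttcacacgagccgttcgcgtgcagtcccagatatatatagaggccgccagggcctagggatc
The JAG1 region before the start holds 1 AP-1 match and the region after the end holds 1. The HES1 region before the start holds no match to the 3 motifs. The HES1 promoter holds 2 RBPJ matches with 8 bases between them. Of the 8 promoters searched, that of HEYL also holds 2, with 73 bases between them, and the other 6 hold none. For reference, windows of the same length around the 151848 chromatin regions of this series hold an AP-1 match in 21.4%, an RBPJ match in 26.9% and a TEAD match in 20.7%, and 6.57%, 20.8% and 11.9% of the 35116 promoters in the table hold these matches. A match is a description of letters and not a bound site.

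The tables hold 750662838 unique molecular identifiers (UMIs) for untreated WM989, 102738398 for WM983B and between 70239657 and 122420544 in each of the 8 treated libraries, which have 3692 to 6273 cells. Barcodes seen more than once across libraries were 19 of 12512 in untreated and 194 of 39827 in treated WM989. The levels given are UMIs summed over the named cells as CPM, that is, per 1000000 UMIs. The intervals in parentheses are exact Poisson 95% intervals and cover counting error only. The 4 primed markers EGFR, AXL, NGFR and NT5E summed to 316 CPM in primed cells of untreated WM989 and to 29.3 CPM in its drug-susceptible cells, and the 7 melanocyte markers to 204 and 4882 CPM. The states were called from the same counts, and in treated WM989 the paper chose the primed clusters by known primed markers. These sums thus describe the labels and are no check of them. In WM983B the sums were 221 and 79.6 CPM for the primed and 747 and 2055 CPM for the melanocyte markers. There the drug-susceptible cluster 3 stood nearer to the primed clusters, with 158 CPM of primed markers against 184 CPM in the primed cluster 2 and 67.0 CPM in the drug-susceptible cluster 1, and with 1059.9, 938 and 2215 CPM of melanocyte markers. In treated WM989 the sums were 191 and 22.1 CPM for the primed and 621 and 4781 CPM for the melanocyte markers. The TGFB1 treatment raised all 10 listed TGF-β target genes over all cells and 9 within drug-susceptible cells (edgeR quasi-likelihood test, Benjamini-Hochberg adjusted p under 0.05). Beside these, 29.0% and 14.9% of all genes were called in either direction. The list was chosen with earlier results of these data known and so is no independent evidence of its direction. The summed level of its genes was 71.3 and 76.6 CPM in the Controls, 656 and 698 CPM with TGFB1 and 55.6 and 56.4 CPM with TGFBRi. Of 13 markers of fibroblast, endothelial, immune and keratinocyte cells, 8 were tested in the treated libraries and 3 were higher with TGFB1 (PDGFRB, PECAM1 and KRT10). That is 37.5%, beside 29.0% of all genes called in either direction. KRT5 and CD3E had no UMI in any treated library and COL3A1 stayed at or below 0.141 CPM. The summed level of the 13 markers ran from 134 to 149 CPM in the Controls and from 172 to 175 CPM with TGFB1. In untreated WM989 the 13 markers summed to 355 CPM in the primed state and to 209 CPM in the drug-susceptible state, with 22.8 and 0.183 CPM of PECAM1, 13.5 and 0.910 CPM of PDGFRB, 6.19 and 1.33 CPM of DCN, 91.8 and 44.7 CPM of CD68, 202 and 129 CPM of KRT10 and 2.47 and 0.312 CPM of VWF. Other markers of the same cell types were lower in the primed state, with 16.9 against 32.2 CPM of LUM and 0.0260 against 0.0591 CPM of PTPRC. COL3A1, CDH5, KRT14 and CD3E were at most 0.167 CPM in either state and KRT5 had no UMI. The sums were 227 and 141 CPM in treated WM989 and 278 and 295 CPM in WM983B. The paper's methods describe both lines as clones that went through single-cell bottlenecks, and a part of other cells in the results was not tested.

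JAG1, which encodes the membrane ligand Jagged 1, lies on the minus strand at chr20:10637684-10673999 (hg38). Summed over all cells, its level was 3.11 and 3.94 CPM in the Control libraries r1 and r2 and 35.1 and 39.1 CPM with TGFB1. It was 3.48 and 3.56 CPM with TGFBRi and 3.17 and 3.72 CPM with PI3Ki. Both TGFB1 libraries stood far above the other 6, and the TGFBRi and PI3Ki libraries lay within the range of the Controls. The fitted log2 difference from the Controls was 3.38 ± 0.09 (SE) with TGFB1, a 10.4-fold difference, against 0.02 ± 0.10 with TGFBRi and 0.08 ± 0.10 with PI3Ki. The 3 treatment contrasts share the Control libraries. In bulk sums of this kind, more cells of a kind and more RNA per cell cannot be told apart, so the levels were also taken within each state. The states were called from the same counts after treatment. Cells of a state were thus selected anew in each treatment, and a level within a state does not tell these apart either.

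The share of cells that the authors called primed was also higher with TGFB1. Primed cells were 94 and 165 in the Controls, which is 2.26% and 4.47% of the cells, and 1577 and 1757 with TGFB1, which is 29.1% and 31.3%. They were 118 and 271 with TGFBRi (2.26% and 4.32%) and 25 and 70 with PI3Ki (0.647% and 1.21%). With TGFB1 primed cells held 83.5% and 84.4% of the JAG1 UMIs, and in the Controls 6.17% and 5.70%.

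Within drug-susceptible cells JAG1 stood at 2.97 and 3.83 CPM in the Controls and at 7.72 and 8.28 CPM with TGFB1, without overlap between the 2 groups. It stood at 3.44 and 3.50 CPM with TGFBRi and at 3.13 and 3.67 CPM with PI3Ki, inside the Control range. The fitted difference with TGFB1 was 1.22 ± 0.10 on the log2 scale, or 2.33-fold. Of the 7700 drug-susceptible cells with TGFB1, 3801 lay in cluster 3, which drew 94.9% of its cells from TGFB1. The drug-susceptible cells compared here are thus not alike in kind. Within primed cells JAG1 stood at 11.2 CPM (6.26 to 18.4) and 7.24 CPM (4.29 to 11.4) in the Controls and at 116 CPM (112 to 121) and 125 CPM (121 to 129.9) with TGFB1. The primed cells of TGFBRi had 5.33 and 5.29 CPM and those of PI3Ki 14 CPM (3.82 to 35.9) and 10.4 CPM, where few primed cells leave wide intervals. In primed cells the mean of the 2 TGFB1 libraries was 13.1-fold the mean of the 2 Controls.

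**Figure D1:**
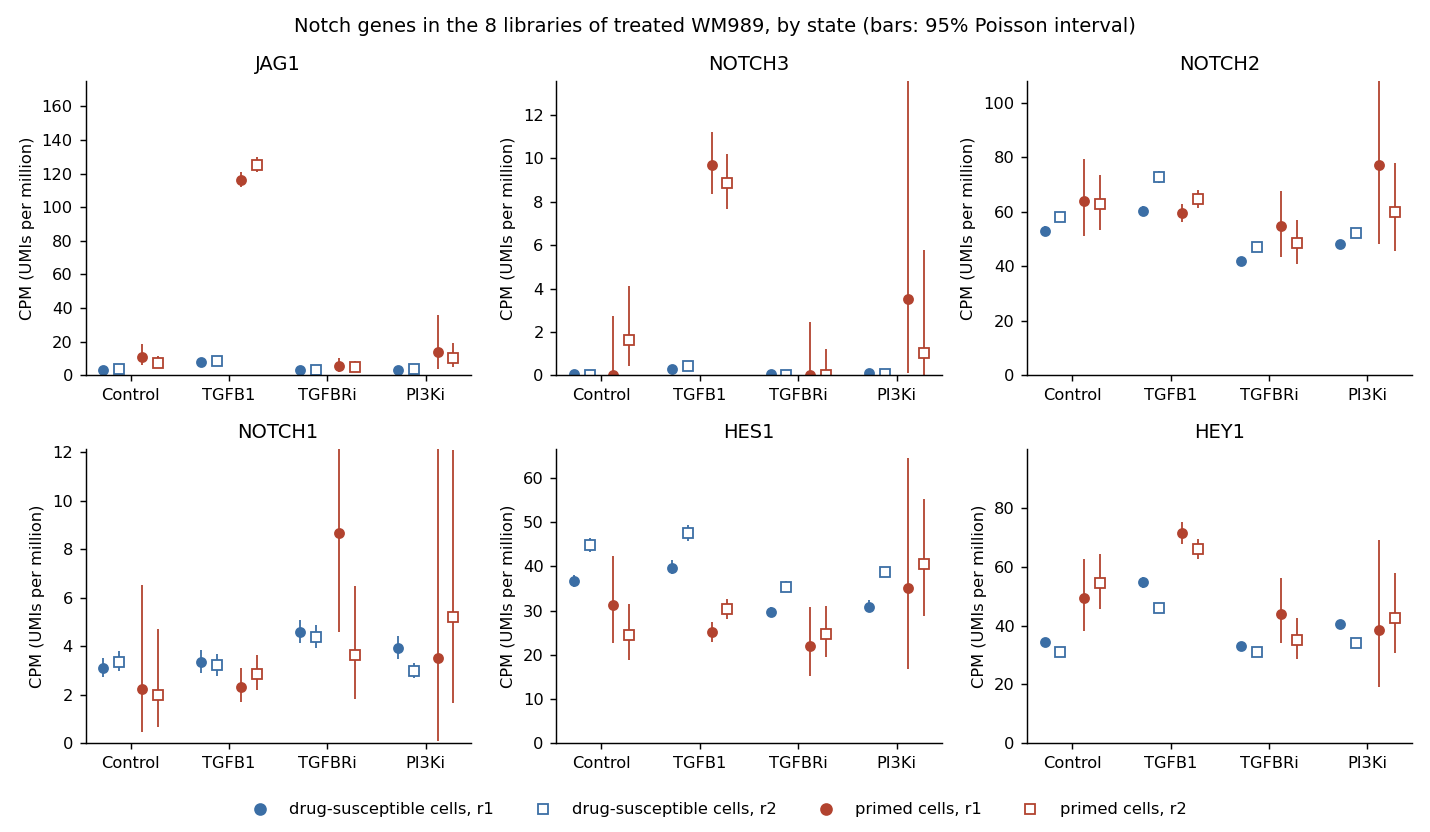
Levels of JAG1, NOTCH3, NOTCH2, NOTCH1, HES1 and HEY1 (CPM, vertical axis, scales differ between panels) in the 4 treatments (horizontal axis) for drug-susceptible cells (blue) and primed cells (red), with filled points for r1, open points for r2 and bars for the exact Poisson 95% interval, some of which run past the panel. JAG1 in primed TGFB1 cells sits at 116 and 125, above all other points of its panel.

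The authors' clusters show where this level lies. Cluster 4, a primed cluster with 3270 cells of which 3254 (99.5%) came from the TGFB1 libraries, had 123 CPM of JAG1 (119 to 126). The next cluster was the drug-susceptible cluster 3, with 94.9% of its 4007 cells from TGFB1, at 11 CPM (10.2 to 11.9), and then the other primed cluster 10, with 9.91% of its 807 cells from TGFB1, at 8.92 CPM (7.19 to 10.9). The intervals of clusters 3 and 10 overlap, while cluster 4 stands apart. The other 10 clusters ran from 5.54 CPM in cluster 7 down to 1.48 CPM in cluster 12, which rests on 3 UMIs. Because cluster 4 is almost all TGFB1 cells, that cluster and the treatment cannot be told apart. Restricted to cluster 10, JAG1 was 30.9 and 19.5 CPM in the 29 and 51 TGFB1 cells and 10.5 and 7.53 CPM in the 89 and 159 Control cells, a ratio of 2.80. The difference within primed cells of 1 cluster was thus smaller than over both. Clusters were called from the same counts, so the TGFB1 cells in cluster 10 were grouped there by their likeness to its other cells. A smaller difference is partly set by that grouping, and cluster 10 held only 92 JAG1 UMIs over all libraries.

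In untreated WM989 JAG1 was also higher in primed cells. Among the r1 wells the primed cells had 4.16, 4.74, 4.73 and 4.55 CPM and the drug-susceptible cells 1.61, 2.09, 3.93 and 3.47 CPM. Among the r2 wells the primed cells had 14.1, 13.4, 9.82 and 9.85 CPM and the drug-susceptible cells 6.02, 3.81, 6.01 and 5.77 CPM. JAG1 was higher in primed cells in 8 of 8 wells, but r2 lay above r1 in all primed and most drug-susceptible wells, and the primed r1 wells overlap the drug-susceptible r2 wells. The wells, given above in order of their numbers, also differ in their share of primed cells. Primed cells were the majority in wells 1, 2, 5 and 6, with 1059 beside 639 drug-susceptible cells in well 2. They were few in wells 3, 4, 7 and 8, with 263 beside 3578 in well 4. Within each replicate the states lay further apart in the wells rich in primed cells. The labels do not say which wells were sorted, and the part of the sort was not tested. Over all cells the JAG1 level was 8.72 CPM (8.31 to 9.15) against 4.27 CPM (4.1 to 4.45), a 2.04-fold difference and 1.03 on the log2 scale. Within the replicates the log2 ratio was 0.46 in r1 and 1.18 in r2. Among cells called G1 the levels were 9.59 against 6.01 CPM, a smaller difference of 1.60-fold. Wells are lanes of few cultures, so 8 of 8 wells is not a count of separate cultures, and no test was made between states.

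**Figure D2:**
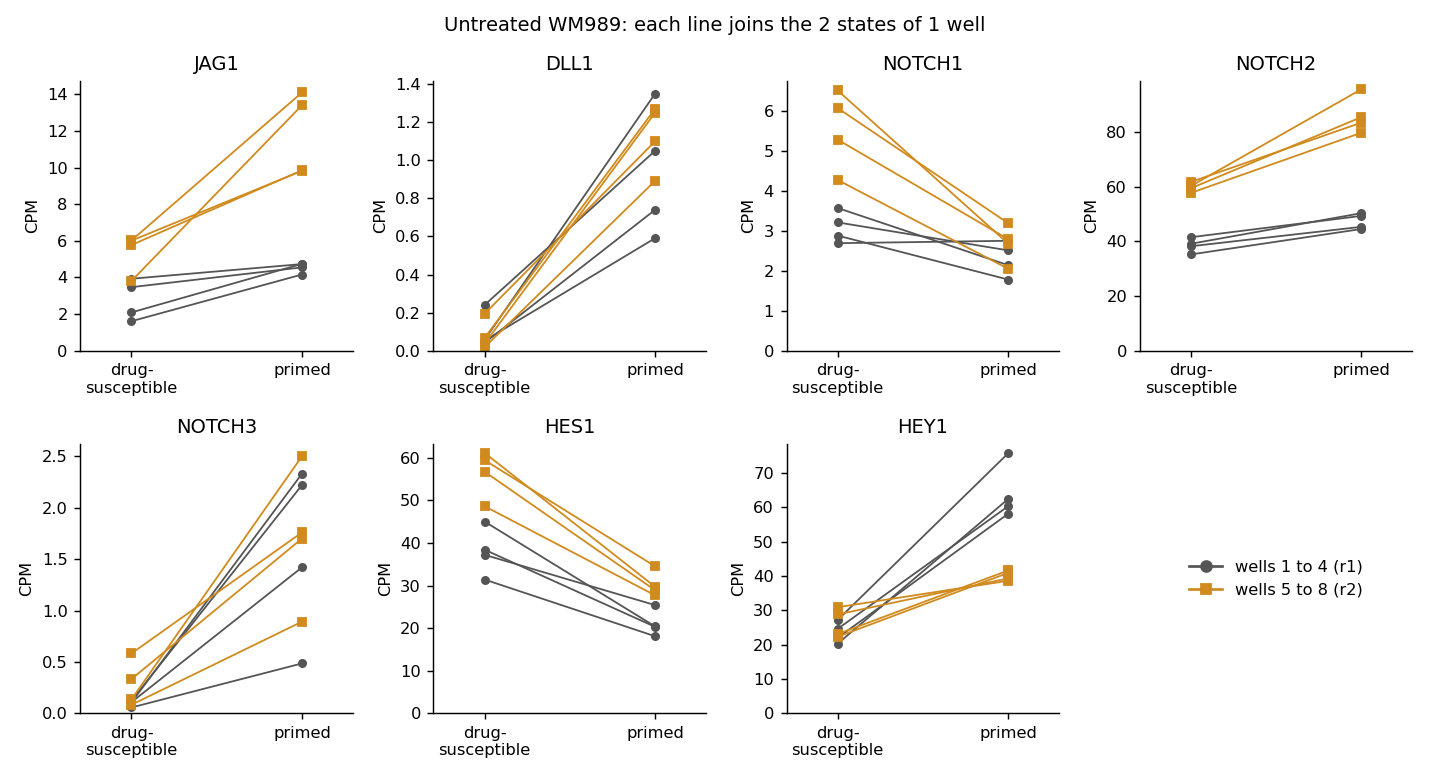
Levels (CPM, vertical axis from 0, scales differ between panels) of 7 Notch pathway genes in the drug-susceptible and the primed cells of each of 8 wells of untreated WM989; a line joins both states of 1 well, grey for r1 and orange for r2. JAG1 and HEY1 are higher and HES1 is lower in the primed cells of 8 of 8 wells.

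The state did not fix the order of the clusters in untreated WM989. The highest JAG1 level was in the small drug-susceptible cluster 10, at 12.6 CPM (11.2 to 14.1). The primed cluster 2 had 10.5 CPM (9.95 to 11.2), the primed cluster 8 had 6.67 CPM (5.80 to 7.65) and the primed cluster 9 had 5.81 CPM (5.15 to 6.53). The intervals of clusters 8 and 9 overlap, and the drug-susceptible clusters 6, 7 and 5 followed at 5.48, 5.09 and 5.07 CPM. The lowest was cluster 1 at 2.59 CPM (2.32 to 2.88). The clusters differ in their replicates, from 50.5% r1 cells in cluster 9 to 79.0% in cluster 10, so the order was also read within each replicate. Cluster 10 had 11.5 CPM (10.0 to 13.2) in r1, above cluster 2 at 5.57 CPM (4.99 to 6.21), and 16.5 CPM (13.2 to 20.3) in r2, where cluster 2 had 16.1 CPM (15.0 to 17.2) and the intervals overlap. The primed clusters 8 and 9 had 3.79 and 2.53 CPM in r1, below the drug-susceptible clusters 6 and 5 at 4.34 and 4.28 CPM. In r2 they had 11.1 and 8.14 CPM, above those clusters at 7.27 and 5.99 CPM, so the place of clusters 8 and 9 differed between the replicates. In WM983B JAG1 was 30.1 CPM (28.6 to 31.7) in primed and 20.8 CPM (19.6 to 22.0) in drug-susceptible cells, a 1.45-fold difference in 1 library. There the order ran from the primed clusters 2 at 37.0 CPM (32.5 to 42.1) and 0 at 29.0 CPM (27.4 to 30.7) to the drug-susceptible clusters 3 at 23.0 CPM (19.7 to 26.7) and 1 at 20.4 CPM (19.1 to 21.8), the last pair with overlapping intervals, although the markers of cluster 3 stood near those of the primed cluster 2.

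**Figure D3:**
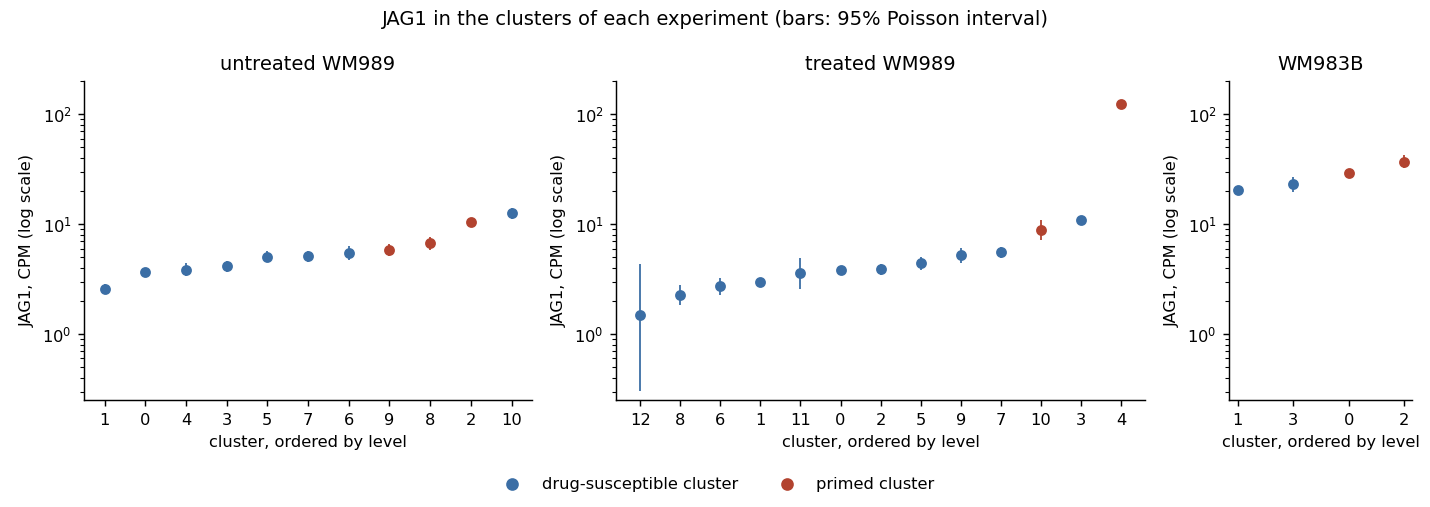
JAG1 level (CPM, log axis) in each of the authors' clusters of untreated WM989, WM983B and treated WM989, ordered by level and coloured by state, with exact Poisson 95% intervals. Cluster 4 of treated WM989 stands at 123, and the drug-susceptible cluster 10 of untreated WM989 leads its panel at 12.6.

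The share of cells with a JAG1 UMI was 29.6% in primed (exact Clopper-Pearson 95% interval 27.9 to 31.3) and 18.7% in drug-susceptible cells (17.9 to 19.5) of untreated WM989, at median depths of 58253 and 52835 UMIs. After each cell was thinned to 10000 UMIs the shares were 7.81% and 3.95%. With TGFB1 they were 66.1% (64.4 to 67.7) and 10.4% (9.74 to 11.1) at median depths of 11144 and 15274 UMIs, and 41.6% and 4.02% after thinning to 5000 UMIs. In WM983B they were 72.5% and 69.6%, and 51.6% and 43.5% after thinning to 30000 UMIs. The primed share was the higher one in each case, and thinning widened the ratio between the states. No cell class in these tables is known to lack JAG1, so a background share from free RNA was not measured.

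DLL1, the gene of Delta-like 1 at chr6:170282206-170306565, was near the limit of detection in treated WM989. Its UMIs numbered 2 and 4 in the Controls, 18 and 15 with TGFB1, 8 and 4 with TGFBRi and 2 and 4 with PI3Ki. Of the TGFB1 UMIs 16 and 14 came from primed cells, at 0.795 and 0.626 CPM, against 0.0334 and 0.0160 CPM in drug-susceptible cells. The fitted log2 difference over all cells was 2.34 ± 0.55 with TGFB1 (1.72 without Control r1 and 3.10 without Control r2) and 0.89 ± 0.70 with TGFBRi (0.26 to 1.64 with 1 library left out), and the gene had too few counts to be tested within drug-susceptible cells. In untreated WM989, where cells were sequenced more deeply, DLL1 ran from 0.591 to 1.35 CPM (median 1.08) in the primed cells of the 8 wells and from 0.0187 to 0.240 CPM (median 0.0551) in the drug-susceptible cells. The 2 states did not overlap, and the sums of 213 and 33 UMIs gave 1.11 against 0.0591 CPM, an 18.8-fold difference (14.5-fold in r1 and 31.3-fold in r2, where drug-susceptible cells held 25 and 8 UMIs). Among cells called G1 it was 7.70-fold, from 164 and 20 UMIs. WM983B had 3 DLL1 UMIs in primed and 6 in drug-susceptible cells, too few to compare.

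JAG2, the gene of Jagged 2 at chr14:105140982-105168824, differed little by treatment or state. Its level was 0.141 and 0.112 CPM in the Controls, 0.0876 and 0.118 CPM with TGFB1, 0.109 and 0.160 CPM with TGFBRi and 0.114 and 0.106 CPM with PI3Ki, with overlap between all groups. The fitted difference with TGFB1 was −0.31 ± 0.47. In untreated WM989 its level was 0.182 CPM (primed) and 0.159 CPM (drug-susceptible), and WM983B held 1 UMI in each state. The remaining Delta-like genes are added for completeness and were chosen after their values were seen. DLL4 had 232 UMIs in primed and 24 in drug-susceptible cells of untreated WM989 (1.21 and 0.0430 CPM), and at most 0.0364 CPM in any treated library. DLL3 was 61.7 and 61.0 CPM in the Controls and 51.3 and 53.1 CPM with TGFB1, a fall of −0.25 ± 0.07 on the log2 scale (edgeR quasi-likelihood test, adjusted p = 0.00747) that was not called without Control r1 (−0.18) or TGFB1 r2 (−0.21). Within drug-susceptible cells the difference was −0.10 ± 0.07 and did not pass the test (edgeR quasi-likelihood test, adjusted p = 0.387). Over the treated libraries primed cells, whose share was higher with TGFB1, had 35.8 CPM of DLL3 and drug-susceptible cells 61.4 CPM.

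Of the receptors, NOTCH3, at chr19:15159038-15200995, differed most by treatment. It had 5 and 6 UMIs in the Controls, 212 and 224 with TGFB1, 4 and 3 with TGFBRi and 8 and 7 with PI3Ki, which is 0.0640 and 0.0748 CPM, 2.65 and 2.64 CPM, 0.0485 and 0.0343 CPM, and 0.114 and 0.0572 CPM. The TGFB1 libraries stood above all others, and the other 3 treatments held only 3 to 8 UMIs per library. The fitted log2 difference with TGFB1 was 5.21 ± 0.26, or 37.0-fold, with −0.72 ± 0.64 for TGFBRi and 0.28 ± 0.54 for PI3Ki. Primed cells held 92.0% and 88.4% of the TGFB1 UMIs, at 9.69 and 8.86 CPM. The primed Control cells had no UMI in r1, which allows up to 2.24 CPM, and 1.61 CPM in r2. Drug-susceptible cells had 0.0651 and 0.0257 CPM in the Controls and 0.284 and 0.416 CPM with TGFB1, a fitted difference of 2.90 ± 0.51, or 7.46-fold. Few Control UMIs leave this value loose, and it was 3.71 without Control r1, 2.35 without Control r2, 3.64 without TGFB1 r1 and 2.23 without TGFB1 r2. By cluster, NOTCH3 was 9.34 CPM (8.43 to 10.3) in cluster 4, 0.873 CPM in 10, 0.525 CPM in 3 and at most 0.0995 CPM in the 8 other clusters with a UMI. Clusters 11 and 12 had none, which allows up to 0.285 and 1.48 CPM.

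In untreated WM989 NOTCH3 followed the same direction by state. It ran from 0.486 to 2.50 CPM (median 1.73) in the primed cells of the wells and from 0.0576 to 0.583 CPM (median 0.116) in the drug-susceptible cells, higher in 8 of 8 wells with an overlap of the ranges. The sums were 296 and 69 UMIs, or 1.54 against 0.124 CPM, 12.5-fold, with 12.6-fold in r1 and 11.7-fold in r2. In WM983B primed cells had 0.328 CPM and drug-susceptible cells 0.297 CPM, 16 UMIs each, so no difference was detectable at this depth.

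NOTCH2, at chr1:119911553-120100779, has near-identical partial copies on the same chromosome, the NOTCH2NL genes, so reads that could be split between them make its level uncertain. It stood at 53.2 and 58.2 CPM in the Controls, 60.0 and 70.7 CPM with TGFB1, 42.1 and 47.2 CPM with TGFBRi and 48.3 and 52.4 CPM with PI3Ki. The TGFBRi and PI3Ki libraries all lay below the Controls and both TGFB1 libraries above them. The fit also applies a factor to each library, which the CPM values do not, so small differences need not match between them. Its log2 differences were −0.30 ± 0.06 for TGFBRi, 0.21 ± 0.06 for TGFB1 and −0.04 ± 0.06 for PI3Ki. Within drug-susceptible cells the values were −0.30 for TGFBRi and 0.24 ± 0.06 for TGFB1. Primed cells had 64.1 and 62.8 CPM in the Controls and 59.4 and 64.6 CPM with TGFB1, a ratio of 0.977. In untreated WM989 the wells ran from 44.5 to 95.6 CPM (median 65.0) in primed and from 35.2 to 61.7 CPM (median 49.6) in drug-susceptible cells, higher in 8 of 8 wells and 1.39-fold over the sums. It was 1.23-fold within r1, 1.38-fold within r2 and 1.60-fold among cells called G1, and the r2 wells lay above the r1 wells in both states. In WM983B it was 55.9 against 49.5 CPM, 1.13-fold.

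NOTCH1, at chr9:136494433-136546048, went the other way in untreated WM989. Its wells ran from 1.78 to 3.19 CPM (median 2.59) in primed and from 2.69 to 6.51 CPM (median 3.92) in drug-susceptible cells, lower in 7 of 8 wells, and the sums of 2.35 against 4.2 CPM differed 1.79-fold, with 1.38-fold in r1 and 2.41-fold in r2. Among cells called G1 it was 2.29 against 3.35 CPM, 1.46-fold. In WM983B it was higher in primed cells, at 24.7 CPM (23.3 to 26.1) against 16.1 CPM (15.0 to 17.2), 1.53-fold. This difference came from 1 of the primed clusters, cluster 0 at 26.7 CPM, whereas the primed cluster 2 had the lowest level of the 4 clusters at 11 CPM. Among the treated libraries it stood at 3.09 and 3.33 CPM in the Controls, 3.09 and 3.12 CPM with TGFB1, 4.68 and 4.36 CPM with TGFBRi and 3.92 and 3.01 CPM with PI3Ki. Only TGFBRi did not overlap the Controls, with a fitted difference of 0.51 ± 0.11 over all cells and 0.49 within drug-susceptible cells, against −0.06 ± 0.12 for TGFB1 and 0.19 ± 0.11 for PI3Ki. NOTCH4, the remaining receptor gene, was 1.31 and 1.28 CPM in the Controls and 1.14 and 1.74 CPM with TGFB1 and was not called in any contrast. It too was chosen after its values were seen.

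**Figure D4:**
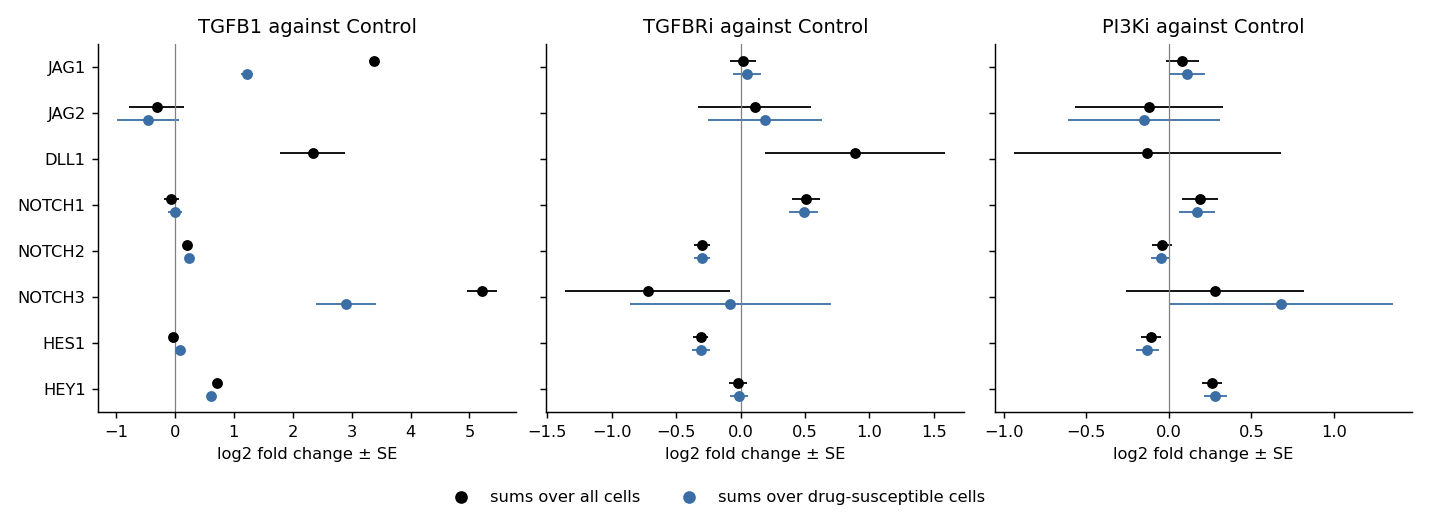
Fitted log2 fold change against Control (horizontal axis, ranges differ between panels) with its standard error for 8 Notch pathway genes under TGFB1, TGFBRi and PI3Ki, over all cells (black) and over drug-susceptible cells (blue); DLL1 is shown only over all cells. With TGFB1, JAG1 stands at 3.38 over all cells and at 1.22 over drug-susceptible cells.

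HES1, a transcriptional repressor and a classical target of the cut Notch receptor at chr3:194136148-194138732, was not higher in the libraries and clusters where JAG1 was highest. Its level was 36.5 and 44.2 CPM in the Controls and 36.0 and 43.0 CPM with TGFB1, and r2 lay above r1 in each treatment. It was 29.5 and 35.0 CPM with TGFBRi and 30.9 and 38.7 CPM with PI3Ki. The fitted difference was −0.04 ± 0.06 with TGFB1, −0.31 ± 0.06 with TGFBRi and −0.11 ± 0.06 with PI3Ki, and with TGFBRi it was −0.31 within drug-susceptible cells too. Primed cells had 31.3 and 24.5 CPM in the Controls and 25.1 and 30.3 CPM with TGFB1, a ratio of 0.993. Cluster 4, the highest in JAG1, had 27.8 CPM of HES1, near the low end of a range from 24.3 CPM in cluster 6 to 61.2 CPM in cluster 5.

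In untreated WM989 HES1 was lower in primed cells in 8 of 8 wells. The primed cells ran from 18.1 to 34.5 CPM (median 26.5) and the drug-susceptible cells from 31.4 to 61.1 CPM (median 46.8), with a small overlap. The sums of 24.8 against 43.6 CPM differed 1.76-fold, with 1.71-fold in r1 and 1.97-fold in r2. Among cells called G1 the levels were 21.0 against 33.4 CPM, a smaller difference of 1.59-fold. The primed cluster 2, the primed cluster highest in JAG1, had 20.2 CPM (19.4 to 21.1), and the primed clusters 8 and 9 had 25 and 35.2 CPM, whereas the drug-susceptible cluster 6 had 78.0 CPM (75.2 to 80.9). In WM983B the states had 38.0 CPM (36.3 to 39.8) and 36.4 CPM (34.8 to 38.0), with overlapping intervals.

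HEY1, a related repressor that lies on chromosome 8, was higher with TGFB1 and in the primed cells of WM989, but not in those of WM983B. Its level was 34.7 and 31.7 CPM in the Controls, 58.9 and 51.2 CPM with TGFB1, 33.4 and 31.3 CPM with TGFBRi and 40.5 and 34.0 CPM with PI3Ki. The TGFB1 libraries stood above all others, by a fitted 0.71 ± 0.06 on the log2 scale or 1.64-fold, against −0.02 ± 0.07 for TGFBRi and 0.26 ± 0.06 for PI3Ki, where 1 library lay within the Control range. Unlike JAG1, most HEY1 UMIs stayed outside the primed cells, which held 30.5% and 34.0% of them with TGFB1 and 2.43% and 5.31% in the Controls. Drug-susceptible cells had 34.5 and 31.0 CPM in the Controls and 54.7 and 45.9 CPM with TGFB1, a fitted 0.61 ± 0.07 or 1.52-fold. Primed cells had 49.2 and 54.3 CPM in the Controls and 71.4 and 66.0 CPM with TGFB1, a ratio of 1.33 over both primed clusters. Within cluster 10 the 29 and 51 TGFB1 cells had 39.3 and 73.1 CPM and the 89 and 159 Control cells 49.9 and 54.0 CPM. The TGFB1 libraries lay on either side of the Controls there, so the ratio of 1.08 averages opposite directions in few cells. By cluster the order began with clusters 4 at 68.7, 3 at 56.7 and 10 at 45.3 CPM (41.3 to 49.6), which is not apart from the drug-susceptible cluster 6 at 45 CPM (43.1 to 47.0), a cluster with 2.73 CPM of JAG1, and ended with cluster 11 at 21.4 CPM.

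In untreated WM989 HEY1 ran from 38.6 to 75.7 CPM (median 49.8) in the primed cells of the wells and from 20.3 to 30.9 CPM (median 23.8) in the drug-susceptible cells, without overlap. The sums of 52.9 against 25.3 CPM gave 2.09-fold, with 2.81-fold in r1 and 1.4-fold in r2. The primed clusters 2, 8 and 9 had 62.3, 40.7 and 38.8 CPM, and the drug-susceptible cluster 10, which led for JAG1, had 40.4 CPM. Primed r1 cells had less JAG1 than primed r2 cells but more HEY1, with 64.3 against 40.9 CPM. Within r2 clusters 8 and 9 had 30.7 and 32.7 CPM, no higher than the drug-susceptible clusters 3 and 6 at 35.2 and 34.6 CPM. In WM983B the direction over all cells was the opposite, with 12.2 CPM (11.2 to 13.2) in primed and 14.4 CPM (13.4 to 15.5) in drug-susceptible cells. Among WM983B cells called G1 the levels were nearer, at 16.8 and 17.9 CPM from 269 and 242 UMIs. There the 2 primed clusters differed, with 21.7 CPM for cluster 2 against 10.8 CPM for cluster 0. So did the drug-susceptible clusters, with 15.1 CPM for cluster 1 and 10.0 CPM (7.88 to 12.6) for cluster 3, and the state did not fix their order.

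The last 2 targets were hardly detected. HEYL, at chr1:39623435-39639643, had no UMI in untreated WM989, which allows up to 0.0156 CPM for the primed and 0.00537 CPM for the drug-susceptible cells. It had 1 UMI in all treated libraries together and 12 and 7 UMIs, or 0.246 and 0.130 CPM, in the primed and drug-susceptible cells of WM983B. NRARP, a feedback inhibitor of the pathway at chr9:137299631-137302271, had 1 UMI in the treated libraries, 2 in primed and 1 in drug-susceptible cells of untreated WM989, and 0 and 2 in WM983B. Neither gene had enough counts to be fitted.

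Past the threshold of an adjusted p of 0.05 in edgeR's quasi-likelihood test were 5 of the 8 genes tested with TGFB1, beside 29.0% of all 18389 genes, 3 of 8 with TGFBRi, beside 2.53%, and 1 of 8 with PI3Ki, beside 12.7%. Within drug-susceptible cells they were 4 of 7, beside 14.9% of 17914 genes, 3 of 7, beside 2.81%, and 1 of 7, beside 12.1%. Since the 10 genes were chosen on these contrasts, nothing is read from these counts.

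A list of 59 other genes of the pathway, from ligands and receptor processing to the nuclear complex and its repressors, was set by function. Of the 54 that could be tested, 27 changed with TGFB1 over all cells, 18 up and 9 down, beside 29.0% of all genes, and their median log2 difference was 0.07 beside 0.01 for all genes. No test of the list as such was made. With TGFBRi 1 changed (1.85%, beside 2.53% of all genes) and with PI3Ki 8 (14.8%, 4 up and 4 down, beside 12.7%). Within drug-susceptible cells 53 could be tested, of which 17 (32.1%, 12 up and 5 down, beside 14.9% of all genes) changed with TGFB1, 1 (1.89%, beside 2.81%) with TGFBRi and 7 (13.2%, 3 up and 4 down, beside 12.1%) with PI3Ki. The 17 were 6 without TGFB1 r1, 9 without Control r2, 10 without Control r1 or TGFB1 r2, and 8 without the term for the replicate. The p-values of these genes are from edgeR's quasi-likelihood test with Benjamini-Hochberg adjustment over all genes. Those within drug-susceptible cells compare cells that were selected by state after treatment.

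With TGFB1 the largest rises on the list were in NEURL1B, TLE4 and HES7. NEURL1B, a ubiquitin ligase that acts on Notch ligands, was 0.0896 and 0.0249 CPM in the Controls and 0.163 and 0.365 CPM with TGFB1 (log2 difference 2.16 ± 0.53, adjusted p = 0.00330). TLE4, a Groucho co-repressor, was 0.192 and 0.287 CPM against 0.563 and 0.837 CPM (1.53 ± 0.27, adjusted p = 1.48e-04), and within drug-susceptible cells its difference of 0.88 ± 0.33 did not pass the test (adjusted p = 0.0748). HES7, a repressor of the HES family, was 0.627 and 0.723 CPM against 1.34 and 1.91 CPM (1.25 ± 0.19, adjusted p = 2.49e-05). All 3 were scarce, at under 2 CPM in every library. The largest falls were in HES6, KAT2B and DTX1. HES6, a HES family member known to counter HES1, was 119.7 and 119 CPM in the Controls and 71.6 and 77.0 CPM with TGFB1 (−0.70 ± 0.07, adjusted p = 1.77e-08). KAT2B, an acetyltransferase of the nuclear complex, was 12.2 and 13.6 CPM against 7.02 and 8.70 CPM (−0.73 ± 0.09, adjusted p = 1.67e-06). DTX1, the ubiquitin ligase Deltex, was 0.807 and 0.511 CPM against 0.313 and 0.389 CPM (−0.91 ± 0.28, adjusted p = 0.0172). NEURL1B lost its call without Control r2 (0.83) or TGFB1 r2 (1.73), and DTX1 without Control r1 (−0.51) or TGFB1 r1 (−0.72). With DESeq2 neither was called (2.02 and −0.92), and DTX1 was also lost without the term for the replicate (−0.92) and with equal cell numbers per library (−0.56). In untreated WM989 primed cells had 11.6 and drug-susceptible cells 125 CPM of HES6, and 3.72 and 14.1 CPM of KAT2B. In treated WM989 primed cells had 1.5 and drug-susceptible cells 0.264 CPM of TLE4, and 3.03 and 0.704 CPM of HES7. The share of primed cells was higher in the TGFB1 libraries, and its part in these rises and falls was not tested over all cells.

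Within drug-susceptible cells NEURL1B (2.1 ± 0.69, adjusted p = 0.0413), HES7 (0.73 ± 0.23, adjusted p = 0.0289) and HES4 (0.71 ± 0.07, adjusted p = 1.83e-07) had the largest rises with TGFB1. DTX1 (−0.87 ± 0.29, adjusted p = 0.0479), HES6 (−0.44 ± 0.07, adjusted p = 4.15e-05) and KAT2B (−0.42 ± 0.09, adjusted p = 0.00204) had the largest falls. Of these 6 genes HES4 and HES6 kept their calls in every setting tried. HES7 lost its call without Control r2 (0.31), TGFB1 r1 (0.82) or TGFB1 r2 (0.61), DTX1 without Control r1 (−0.50), TGFB1 r1 (−0.64) or TGFB1 r2 (−1.13), and KAT2B without TGFB1 r1 (−0.30). NEURL1B lost it without Control r2 (0.75), TGFB1 r1 (2.33), TGFB1 r2 (1.65) or either PI3Ki library (2.09), and with no filter on low counts (2.07). With DESeq2 HES7 (0.69) and DTX1 (−0.87) were not called, and without the term for the replicate NEURL1B (2.11), HES7 (0.75) and DTX1 (−0.87) were not. HES4, another HES repressor, stood at 17.6 and 16.4 CPM in the Controls and at 29.1 and 26.5 CPM with TGFB1 over all cells. RBPJ, the DNA-binding partner of the cut receptor, was chosen after its values were seen. Over all cells it was 61.4 and 60.6 CPM in the Controls and 85.4 and 87.1 CPM with TGFB1 (0.48 ± 0.06, adjusted p = 3.71e-06). Within drug-susceptible cells its difference was 0.05 ± 0.07 and did not pass the test (adjusted p = 0.668), and over the treated libraries primed cells had 152 CPM of RBPJ and drug-susceptible cells 57.3 CPM.

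With TGFBRi the co-activator gene MAML2 rose from 22.9 and 20.4 CPM to 25.6 and 26.6 CPM (0.29 ± 0.07, adjusted p = 0.0305), and by 0.30 ± 0.07 within drug-susceptible cells (adjusted p = 0.0205). With PI3Ki the largest rises were in DTX1 (0.69 ± 0.23, adjusted p = 0.0474), MAML3 (0.47 ± 0.11, adjusted p = 0.00527) and HEY2 (0.32 ± 0.10, adjusted p = 0.0443). The largest falls were in TLE1, a co-repressor, from 23.6 and 25.3 CPM to 13.3 and 16.3 CPM (−0.62 ± 0.08, adjusted p = 1.45e-05), KAT2B (−0.34 ± 0.09, adjusted p = 0.0125) and NCSTN, a subunit of γ-secretase, from 14.5 and 15.0 CPM to 11.6 and 10.3 CPM (−0.33 ± 0.07, adjusted p = 0.00477). Within drug-susceptible cells the same 3 fell, and the rises were in DTX1, MAML3 and TLE3 (0.26 ± 0.08, adjusted p = 0.0297). Of the genes named for TGFBRi and PI3Ki only TLE1 kept its call in every setting tried. Without Control r2 the calls of MAML2 (0.19), DTX1 (0.33), MAML3 (0.46), HEY2 (0.39), KAT2B (−0.30) and NCSTN (−0.25) were lost over all cells and that of TLE3 (0.26) within drug-susceptible cells, and the same 7 were lost without the term for the replicate. With DESeq2 MAML2 (0.28), DTX1 (0.70) and HEY2 (0.33) were not called over all cells, nor TLE3 (0.26) within drug-susceptible cells. The counts for TGFBRi and PI3Ki rest on single libraries: without Control r2 they were 0 and 1, and the count for TGFBRi was 6 without TGFBRi r1.

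ATAC-seq of sorted WM989 cells is a measure that was not used to choose the genes. Peaks of the 12 libraries were merged into 151848 regions found in at least 3 libraries, and 78211 had a peak in all 12 and were tested on log2 fold enrichment over the local background. For the test each library was centred on its median over these regions. The fold enrichments printed and drawn are not centred, so they need not give the same differences. As sorted bulk samples, more cells with an open site and more openness per cell cannot be told apart. The bodies of the 10 genes and the 10 kb before their starts held 60 regions, and 33 of them were tested. Of these, 2 differed between EGFR-High and Mix, both higher (6.06%, beside 9.86% of all regions), 6 between NGFR-High and Mix, 4 higher and 2 lower (18.2%, beside 15.9%), and 6 between EGFR-NGFR-High and Mix, 3 higher and 3 lower (18.2%, beside 15.8%). The 3 contrasts share the Mix libraries. The shares are near or below those of all regions, so the counts are no result about the genes as a group. How many of all regions were higher in all 3 sorts at once was not counted, so the number at the genes has no reference and nothing is read from it. It was 2 of the 33 regions, and 1 of them was not called in EGFR-High with uncentred libraries.

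The first of these is a region of 780 bases at chr20:10679007-10679786, whose near edge lies 5008 bases before the JAG1 start, inside a long noncoding RNA gene, and whose sequence is given above. Its fold enrichment was 14.9, 16.5 and 12.7 in the EGFR-High libraries and 18.7, 16.2 and 17.4 in the NGFR-High libraries. It was 23.8, 14.6 and 13.9 in the EGFR-NGFR-High libraries and 10.3, 7.07 and 7.26 in the Mix libraries. All 9 marker-high libraries lay above the 3 Mix libraries. After centring the log2 differences were 1.05 ± 0.22 (limma, adjusted p = 6.54e-04), 1.08 ± 0.22 (limma, adjusted p = 2.19e-04) and 1.01 ± 0.22 (limma, adjusted p = 5.06e-04), or 2.07-, 2.12- and 2.02-fold. The region over the JAG1 start itself, chr20:10672768-10675546, was wide open in every library with a fold enrichment between 49.4 and 84.9, and its differences of 0.01, 0.20 and −0.04 did not pass the test.

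The other JAG1 regions differed less evenly. A region overlapping exons at chr20:10651184-10652597, 21402 bases into the gene, had 47.3, 45.5 and 40.0 in NGFR-High, 41.4, 41.6 and 37.2 in EGFR-NGFR-High, 34.1, 29.8 and 29.4 in EGFR-High and 32.7, 29.7 and 26.1 in Mix. It was higher than Mix in NGFR-High (0.57 ± 0.14, limma, adjusted p = 0.00293) and in EGFR-NGFR-High (0.39 ± 0.14, limma, adjusted p = 0.0467), the latter lost in 7 of the fits that left out 1 library, in which it ran from 0.30 to 0.45. An intronic region at chr20:10658851-10659270, 14729 bases into the gene, went down, with 11.2, 8.95 and 16.9 in Mix, 4.77, 6.56 and 7.05 in NGFR-High, 6.55, 5.67 and 9.92 in EGFR-NGFR-High and 5.12, 11.3 and 9.30 in EGFR-High. The difference was −1.0 ± 0.28 in NGFR-High (limma, adjusted p = 0.00797) and −0.79 ± 0.28 in EGFR-NGFR-High (limma, adjusted p = 0.0434). The first was not past the threshold without Mix 3 (−0.75) or NGFR-High 1 (−0.83), and the second without EGFR-NGFR-High 1 (−0.64), EGFR-NGFR-High 2 (−0.65), Mix 1 (−0.84) or Mix 3 (−0.54) and with uncentred libraries (−0.74).

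A region past the far end of JAG1, at chr20:10622475-10623252 and overlapping SLX4IP, was found after its values were seen, when the search was widened to 50 kb on either side. It lies 14432 bases past the end of the gene. Its fold enrichment was 15.8, 14.7 and 11.3 in EGFR-High, 20.8, 12.3 and 11.9 in EGFR-NGFR-High and 14.3, 9.18 and 9.87 in NGFR-High, and none of the 3 Mix libraries had a peak there. A peak in all 9 marker-high libraries and no Mix library was found in 0 of the 60 regions and in 1 of the 79 further regions of the flanks, beside 0.857% of all regions. A Mix library without a called peak can still have signal below the caller's threshold.

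The second region higher in all 3 sorts lies before HES1, at chr3:194132336-194133062, 727 bases long with its near edge 3086 bases before the start, and its sequence is given above. Its fold enrichment was 21.8, 15.6 and 10.8 in EGFR-High, 17.5, 18.8 and 20.7 in NGFR-High, 31.2, 22.7 and 21.3 in EGFR-NGFR-High and 13.4, 9.90 and 9.20 in Mix. EGFR-High overlapped Mix in 1 library and the other 2 sorts did not. The log2 differences were 0.72 ± 0.21 (limma, adjusted p = 0.0212), 0.80 ± 0.21 (limma, adjusted p = 0.00532) and 1.16 ± 0.21 (limma, adjusted p = 4.74e-05). The first was not past the threshold with uncentred libraries (0.53) or without EGFR-High 1 (0.44), Mix 2 (0.68) or Mix 3 (0.60), so the call in all 3 sorts rests on the centring and on these libraries. The neighbouring region chr3:194133444-194135519 had 68.8, 68.2 and 66.3 in NGFR-High and 48.8, 40.1 and 51.8 in Mix (0.52 ± 0.12, limma, adjusted p = 9.50e-04). The region over the HES1 start, chr3:194135535-194138520, which includes the promoter with the paired RBPJ matches, differed by 0.14, 0.10 and −0.02 and did not pass the test. HES1 RNA was lower in primed cells of untreated WM989, so the sign at the region before the start was the opposite of that of the RNA.

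**Figure D5:**
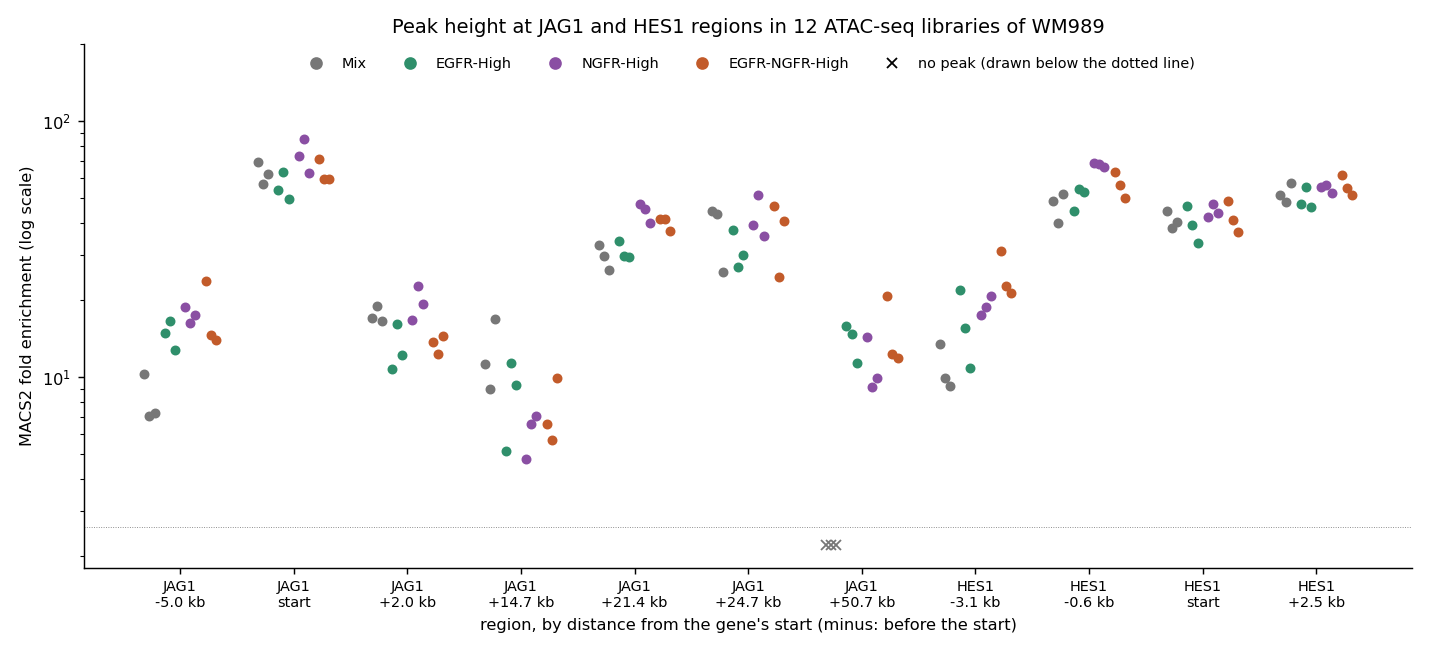
MACS2 fold enrichment (log axis) of 7 regions at JAG1 and 4 at HES1, named by the distance from the gene start in kilobases, in 12 ATAC-seq libraries coloured by sort; crosses mark libraries without a peak. At the JAG1 region before the start the 3 Mix libraries lie between 7.07 and 10.3 and the 9 marker-high libraries between 12.7 and 23.8.

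Of the other members, the region over the HEY1 start was lower in EGFR-NGFR-High (−0.35 ± 0.12, limma, adjusted p = 0.0396). This call was lost with uncentred libraries (−0.30) and without EGFR-NGFR-High 2 (−0.31), EGFR-NGFR-High 3 (−0.34), Mix 1 (−0.36) or Mix 3 (−0.25). A region before HEYL, at chr1:39640800-39641362, was lower in NGFR-High (−0.64 ± 0.23, limma, adjusted p = 0.0441) and in EGFR-NGFR-High (−0.65 ± 0.23, limma, adjusted p = 0.0406). Both calls were lost with uncentred libraries (−0.62 and −0.60) and without Mix 2 (−0.52 and −0.53) or Mix 3 (−0.59 and −0.60), the first also without NGFR-High 1 (−0.50) or NGFR-High 3 (−0.64), and the second without EGFR-NGFR-High 2 (−0.61) or EGFR-NGFR-High 3 (−0.54). Of the 5 NOTCH3 regions 1 was tested, at chr19:15177143-15177962, and its differences of 0.30, 0.56 and 0.36 did not pass the test. A region at chr19:15198028-15198253 near the NOTCH3 start had a peak in all 3 NGFR-High libraries, 1 EGFR-NGFR-High library and none of the others, and one at chr19:15195321-15195775 had a peak in 2 NGFR-High and 2 EGFR-NGFR-High libraries. A peak in all 3 libraries of a sort and in no Mix library was found in 1 of the 60 regions for EGFR-High (at NOTCH2), in 2 for NGFR-High (at NOTCH3 and HEYL) and in 1 for EGFR-NGFR-High (at NOTCH2), beside 1.58%, 3.52% and 4.80% of all regions. The reverse, a peak in all 3 Mix libraries and none of a sort, was found in 0, 1 (at NOTCH2) and 0 of the 60 regions in that order. It was not counted over all regions. DLL1, NOTCH1, NOTCH2, NOTCH3 and NRARP had no region past the threshold, and JAG2 had no region. In the 50 kb flanks 39 regions were tested, and 2 (1 higher and 1 lower), 6 (2 higher and 4 lower) and 5 (1 higher and 4 lower) passed for EGFR-High, NGFR-High and EGFR-NGFR-High, which is 5.13%, 15.4% and 12.8% beside 9.86%, 15.9% and 15.8% of all regions. A region 44934 bases before the JAG1 start, at chr20:10718933-10719488, had 10.8, 11.3 and 10.6 in Mix, 5.55, 7.09 and 5.38 in EGFR-High, 4.37, 7.44 and 5.17 in NGFR-High and 4.17, 7.56 and 5.46 in EGFR-NGFR-High, with every marker-high library below the Mix libraries. Its differences were −0.68 ± 0.27 (limma, adjusted p = 0.103), −1.0 ± 0.27 (limma, adjusted p = 0.00627) and −1.02 ± 0.27 (limma, adjusted p = 0.00496). The first passed with uncentred libraries (−0.87), and the others did not without NGFR-High 1 (−0.83) and without EGFR-NGFR-High 1 (−0.73) in turn. Both this region and the next were chosen after their values were seen. The other, before NOTCH1 at chr9:136566788-136567340, was higher in EGFR-High (0.72 ± 0.22, limma, adjusted p = 0.0269), in NGFR-High (1.02 ± 0.22, limma, adjusted p = 6.40e-04) and in EGFR-NGFR-High (0.81 ± 0.22, limma, adjusted p = 0.00652). The first was lost with uncentred libraries (0.53) and without EGFR-High 1 (0.66), EGFR-High 3 (0.62) or Mix 1 (0.63), and the last without EGFR-NGFR-High 1 (0.72).

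Over the 11 clusters of untreated and the 13 clusters of treated WM989, the 5 genes whose log2 level was most like that of JAG1, by the lower of the 2 Pearson correlations among 8590 genes, were SMOX (0.82 and 0.92), IRF2BP2 (0.81 and 0.82), FHL3 (0.80 and 0.92), SPATC1L (0.79 and 0.81) and TPRA1 (0.82 and 0.79). HEY1 had 0.68 and 0.67, NOTCH2 0.27 and 0.36, and HES1 −0.42 and −0.38. With 5 CPM in place of 1 CPM added before the log, 4 of the 5 genes were named again. Clusters of 1 experiment share libraries and depth and differ in replicate make-up, and cluster 4 of treated WM989 stands apart from the rest, so these values describe the clusters and carry no test.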

How the data were processed

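For the 10x 3′ libraries the authors deposited a matrix of raw UMI counts. Cell Ranger and hg38 are named in the submitters' notes, while its version and gene annotation are not given in the sources used here. Deposit followed a filter of cells in Seurat on gene number, low and high, and on the percent of mitochondrial reads. High gene numbers were treated as likely doublets, and no doublet caller was run here. Their metadata gave library, replicate, state, cluster and phase, and the UCell scores were not used. The labels name the treated replicates Mix and Primed where the metadata say r1 and r2, and the metadata names were used. For ATAC-seq the authors deposited MACS2 2.1.1.20160309 peak lists per library, after bowtie2 2.3.4.1, samtools 1.1 and removal of duplicates, with insertions inferred from the transposase. The deposited fold enrichment is a ratio over local background, and the deposited −log10 of the q-value was used only as a stricter limit of 5. As peaks are listed without reads, their depth is unknown.

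Here UMIs were summed over cells and scaled to CPM by the total alone, without the TMM factors of the fit. Treated libraries were fitted in edgeR 4.0.16 (R 4.3.3) with filterByExpr, TMM factors (0.941 to 1.05) and terms for treatment and replicate, which left 3 residual degrees of freedom. Two-sided quasi-likelihood p-values were adjusted after Benjamini-Hochberg and called under 0.05, and a standard error is the log2 difference divided by the root of F. The replicate term was kept because in each of 2 parallel samples the cells of 1 well were split over the plates of all treatments. Same-numbered libraries deviated together over 7840 genes, with correlations of 0.254 to 0.675 in 6 pairs. Primed cells were too few per library to be fitted. ATAC regions were fitted on centred log2 fold enrichment in limma 3.58.1 with 8 residual degrees of freedom, after merging peaks that shared 1 base. Both fits were tested on simulated data with known changes. States and clusters were compared without a test, since states were called from the same counts. A count of 0 was given a limit of 3 counts. In the treated libraries 33 cells under 5000 UMIs were left out of the thinned shares. Python 3.11.15 was used with numpy 2.4.6, scipy 1.17.1 and pandas 2.3.3.

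The 10 genes and all lists were chosen with earlier results of these data known. Named besides the 10 were, per contrast, at most the 3 largest rises and 3 largest falls of the listed pathway genes past the threshold, and the 5 genes most like JAG1 among those with at least 10 CPM in 1 cluster of each experiment. Gene positions are from GENCODE on hg38, matched by symbol. DLL1 overlaps another gene and the JAG1 start a noncoding one, so their counts could be split. Alternatives tried were DESeq2 1.42.0, RLE factors, no filter, no replicate term, equal cell numbers of 3692, single libraries left out, uncentred or stricter peaks, single replicates, G1 cells, barcoded cells and thinning.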

Additional observations from a re-analysis of the deposited data

Results flagged for a closer look

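In WM983B the log2 ratio of HES1 between primed and drug-susceptible cells was 0.06, whereas it was below 0 in all 8 wells of untreated WM989. For HEY1 the log2 ratio in WM983B was −0.24, whereas it was above 0 in all 8 wells of untreated WM989. Both are listed because the ratios have opposite signs in the cell lines under the same names of states. The markers separated these states less in WM983B than in WM989, so the contrasts are not alike. For HES1 the counting intervals of the WM983B states overlap, so no direction is read there. Over all cells only HEY1 was lower in primed cells of WM983B beyond counting error. Among cells called G1 its log2 ratio was −0.10, from 269 and 242 UMIs, and no direction is read from that. With 1 WM983B library the difference between the lines was not tested. A search for a single outlying well among 16 groups of 8 wells found 0.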

How the results depend on the processing

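No fitted difference of the 10 genes changed sign while called, under 561 combinations of gene, contrast and setting, and 38 moved by more than their error. Of the other pathway genes, the 27 called with TGFB1 over all cells ran from 21 to 29 with 1 library left out. The 1 called with TGFBRi became 0 with DESeq2, 2 with no filter and 0 with no replicate block, and 0 to 6 with 1 library left out (6 without TGFBRi r1, 0 without Control r2, TGFBRi r2, PI3Ki r1 or PI3Ki r2). The 8 with PI3Ki became 4 with DESeq2, 1 with no replicate block and 1 to 12 with 1 library left out (1 without Control r2 or PI3Ki r2, 3 without PI3Ki r1, 4 without Control r1, 5 without TGFB1 r2). Within drug-susceptible cells the 17 with TGFB1 became 11 with DESeq2, 8 with no replicate block and 6 to 21 with 1 library left out (6 without TGFB1 r1, 9 without Control r2, 10 without Control r1 or TGFB1 r2). The 1 with TGFBRi became 0 with no replicate block and 0 to 6 with 1 library left out (6 without TGFBRi r1, 2 without Control r1, 0 without Control r2 or TGFBRi r2). The 7 with PI3Ki became 4 with DESeq2, 1 with no replicate block and 1 to 12 with 1 library left out (1 without Control r2 or PI3Ki r2, 3 without PI3Ki r1, 12 without TGFBRi r1 or r2). Over all genes, no replicate block took the counts from 466 to 40 (TGFBRi) and 2328 to 649 (PI3Ki), and within drug-susceptible cells from 2665 to 1189 (TGFB1), 503 to 47 (TGFBRi) and 2170 to 570 (PI3Ki). DESeq2 called 329 for TGFBRi in drug-susceptible cells, and no filter 748 for TGFBRi over all cells. With 1 library left out the counts over all cells ran from 3164 to 6377, 168 to 1146 and 719 to 3298 for TGFB1, TGFBRi and PI3Ki, and within drug-susceptible cells from 988 to 3722, 206 to 1247 and 632 to 3286. The cause of these shifts was not tested.

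Of the chromatin regions at the 10 genes, the 2 called in EGFR-High became 1 without centring and 1 to 3 with 1 library left out (1 without EGFR-High 1, Mix 2 or Mix 3), the 6 in NGFR-High became 4 to 6, and the 6 in EGFR-NGFR-High became 3 without centring and 2 to 6 with 1 library left out (2 without EGFR-NGFR-High 2 or Mix 3, 3 without EGFR-NGFR-High 3). Over all regions, leaving out 1 library gave 4095 to 8001, 6906 to 12819 and 8091 to 12671. ATAC libraries share only a number: same-number correlations ran from −9.67e-05 to 0.174, against −0.157 to 0.0403 for other pairs, 11 of 12 libraries correlated best with their own number, and a replicate block gave 3, 6 and 6 regions at the genes and 9527, 14465 and 14214 in all. The regions present in all marker-high and no Mix library went from 0 to 1 with 50 kb on either side. The log2 ratio of JAG1 between states went from 1.03 to 0.46 with only r1, in WM983B from 0.53 to 0.86 with only G1 cells, and with TGFB1 against Control in primed cells from 3.71 to 1.48 within cluster 10, an alternative chosen after seeing the data, as was the 50 kb flank. The ratio of shares with a JAG1 UMI, primed over drug-susceptible, became 1.98, 1.19, 2.74 and 10.3 after thinning, from 1.58, 1.04, 1.54 and 6.36 in untreated WM989, WM983B, Control and TGFB1. HEYL and NRARP had too few counts to be fitted.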
